A study of Mus musculus with 19 samples.

Results

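Cells expressing the smooth muscle myosin gene Myh11 were taken from single-cell RNA profiles of the mouse burn/tenotomy injury site to describe its vascular smooth muscle cells. The cells were selected on their own UMI counts of these marker genes. A cell was kept if it held at least 2 unique molecular identifiers (UMIs, each standing for 1 captured transcript) of Myh11 and at least 1 UMI of at least 2 of the 5 supporting genes Cnn1, Acta2, Tagln, Lmod1 and Notch3. It could hold at most 1 UMI of Ptprc, Pdgfra or Cdh5, which mark leukocytes, fibroblasts and endothelial cells. This gave 1067 cells, called Myh11+ cells here, of the 39541 cells that passed the filters (no fewer than 500 genes, and mitochondrial UMIs of 25% or less). In this model, mice receive a dorsal burn and an Achilles tendon transection, and cells are collected from the tenotomy site, where cartilage and bone later form in soft tissue. There were 4 libraries at day 0, 3 at day 3, 4 at day 7 and 4 at day 21. A further 4 libraries came from mice given p7N3, a CD47-activating peptide, at 10 mg/kg intraperitoneally each day from 3 days before to 3 days after injury. The labels give day 7 as the harvest of p7N3 replicates 1 to 3 and no harvest day for replicate 4, which was taken from the text of the study. The labels list the burn for day 0 too, whereas the text of the study treats that time point as uninjured. They name no vehicle for any library, so the day 7 libraries are called untreated here, although the text of the study sets its p7N3 cells against cells from mice given PBS; which libraries those are was not given in the sources used here. The series is labelled as C57 and LysmCre/Tgfb1fx/fx mice, the latter losing Tgfb1 in myeloid cells that express lysozyme M, with no genotype given for a library. The methods describe the wild type mice as young adult male C57BL/6J. The labels do not tie libraries to separate animals, so p-values measure the spread between these libraries.

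Vascular smooth muscle cells wrap arteries, arterioles and veins and set their diameter. They contract when calcium activates myosin light chain kinase, relax when myosin phosphatase removes the phosphate, and keep this state through serum response factor and its coactivator myocardin. Pericytes are mural cells of capillaries that share part of this programme and carry Rgs5, Kcnj8 and Abcc9. After vessel injury, smooth muscle cells are known to lower contractile genes, divide and make matrix, a change called phenotypic modulation.

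Serum response factor binds the CArG box, a stretch of A and T bases between a pair of C and a pair of G bases, and the pattern was looked for in the promoters of the gate and contractile genes. RefSeq promoter windows (GRCm38.p6, 250 bases before to 50 after a gene start) were found for 32 of 36 such genes, and 6 of the 32 (18.8%) held the pattern on either strand. Over all genes in the table the share was 488 of 27025 (1.81%). The 6 stretches of 50 bases are shown because their genes moved in different directions in these cells; the CArG box is in capitals.

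Myl9 promoter, chr2:156775283-156775332, plus strand, box starting 161 bases before the gene start: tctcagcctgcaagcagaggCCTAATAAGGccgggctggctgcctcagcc

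Cnn2 promoter, chr10:79988524-79988573, plus strand, box starting 56 bases before the gene start: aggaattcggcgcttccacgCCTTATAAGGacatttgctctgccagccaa

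Myl6 promoter, chr10:128493030-128493079, minus strand, box starting 50 bases before the gene start: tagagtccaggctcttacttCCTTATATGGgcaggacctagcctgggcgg

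Vcl promoter, chr14:20929151-20929200, plus strand, box starting 227 bases before the gene start: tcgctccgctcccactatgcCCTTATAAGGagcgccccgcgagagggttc

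Ldb3 promoter, chr14:34588687-34588736, minus strand, box starting 35 or 109 bases before its gene starts: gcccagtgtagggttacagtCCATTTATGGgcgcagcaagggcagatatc

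Filip1l promoter, chr16:57549160-57549209, plus strand, box starting 62 bases before the gene start: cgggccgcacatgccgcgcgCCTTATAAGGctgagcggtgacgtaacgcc

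Myl9 and Myl6 encode myosin light chains, Cnn2 a calponin, Vcl the adhesion protein vinculin and Ldb3 a Z-disc protein. Cnn2, Vcl and Filip1l carry the identical 10-base box. None of the gate genes that matched the table held the pattern, which says only that these letters are not in that window. The match is a description of the sequence and was not tested for binding.

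The Myh11+ cells numbered 37, 17, 57 and 37 in the day 0 libraries, 22, 18 and 20 at day 3, 53, 60, 76 and 44 at day 7, 125, 63, 74 and 164 at day 21, and 57, 50, 37 and 56 with p7N3. Their summed UMIs per library lay between 92104 and 220276 at day 0. Day 3 libraries held 276497 to 444591, day 7 libraries 559058 to 693280, day 21 libraries 677251 to 1763459 and p7N3 libraries 379797 to 790412. Day 0 was thus the shallowest group. The median cell held 4657.5 UMIs at day 0, 18095 at day 3, 8840 at day 7, 8550 at day 21 and 9641.5 with p7N3. The median mitochondrial percentage of a library was 7.40 to 9.97% at day 0 and 3.28 to 5.16% in all other libraries. Depth and mitochondrial share cannot be told apart from day 0 in the comparisons with it. Over all pairs of libraries, 3 barcodes were shared by Myh11+ cells.

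The gate genes describe the cells but cannot check the label, since the rule used them. A UMI of Acta2, alpha smooth muscle actin, was present in 99.7% of the Myh11+ cells, Tagln in 98.4%, Notch3 in 94.5%, Lmod1 in 77.5% and Cnn1 in 47.1%. In the Pdgfra class (Pdgfra+ stromal cells), which should lack them, Lmod1 was found in 1.24% and Cnn1 in 7.97%, at a median of 15944 UMIs per cell against 8432 in the Myh11+ cells. In the Ptprc class (leukocytes) the shares were 0.438% for Lmod1 and 1.09% for Cnn1 at a median of 7428.5 UMIs. Acta2 had a UMI in 57.4% of the Pdgfra class and 26.1% of the Ptprc class. The pericyte gate took cells with at least 2 Rgs5 UMIs and at most 1 UMI each of Myh11, Ptprc, Pdgfra and Cdh5. Such a cell also held a UMI of at least 2 of Kcnj8, Abcc9, Higd1b, Cspg4 and Notch3. This gate was nearest to the Myh11+ cells in Acta2 (87.0%), Tagln (75.8%) and Lmod1 (25.5%), with Cnn1 in 6.02%. Its Notch3 share of 91.0% is partly set by that rule.

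The gate also held cells carrying pericyte genes, and more of them after injury. Rgs5, a regulator of G protein signalling abundant in pericytes, was found in 50.7% of the Myh11+ cells at day 0 and in 80.5% of all of them, against 16.5% of the Pdgfra class. Kcnj8 or Abcc9, the channel and receptor subunits that mark pericytes, had a UMI in 10.1% of cells at day 0, 65.0% at day 3, 58.8% at day 7, 54.7% at day 21 and 55.5% with p7N3. Because deeper cells show more genes, the mean expected share after thinning to 4000 UMIs per cell was also computed, which left out 52 Myh11+ cells at day 0, 19 at day 7, 5 at day 21 and 11 with p7N3. It was then 9.71%, 48.4%, 48.9%, 42.2% and 47.6% in the same order. In the Pdgfra class, thinned alike, it was 4.27%, 5.27%, 8.19%, 14.9% and 5.27%. The median cell had 33.1 Myh11 UMIs per 10000 UMIs at day 0, 4.63 at day 3, 5.30 at day 7, 8.87 at day 21 and 5.52 with p7N3. Its Rgs5 level was lowest at day 0, where Myh11 was highest, with 1.18, 18.8, 53.5, 36.3 and 46.0 UMIs per 10000. Since the gate counts UMIs and not a level, a deeper cell entered it at a lower Myh11 level. Cells at exactly 2 Myh11 UMIs made up 1.35% of the Myh11+ cells at day 0 and 27.9% at day 7. At the edge of the gate, the 188 cells with exactly 2 Myh11 UMIs had medians of 42 Acta2 and 53 Rgs5 UMIs, and the 367 cells left out for having only 1 had 27 and 41. The 446 cells with at least 10 Myh11 UMIs had 135 Acta2 and 2.5 Rgs5 UMIs. The gate thus spanned cells with and without pericyte genes, which the rule did not use, and the share with Kcnj8 or Abcc9 was lowest at day 0.

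Main results are therefore also given for the Myh11-high cells, those with at least 10 Myh11 UMIs per 10000 UMIs, a limit chosen after the data were seen. These were 141 of 148 cells at day 0 (95.3%), 18 of 60 at day 3 (30.0%), 70 of 233 at day 7 (30.0%), 193 of 426 at day 21 (45.3%) and 73 of 200 with p7N3 (36.5%). The day 3 libraries held 6, 5 and 7 of them, below the minimum of 10 cells used for all Myh11+ cells. All Myh11-high values at day 3 rest on those few cells. In all, 110 cells lay between 8 and 12 UMIs per 10000. Kcnj8 or Abcc9 was found in 8.51% of the Myh11-high cells at day 0, 22.2% at day 3, 22.9% at day 7, 21.8% at day 21 and 12.3% with p7N3, or 7.08%, 15.6%, 13.0%, 14% and 9.92% at 4000 UMIs per cell. The limit is on Myh11, itself a contractile gene that was lower after day 0. It thus favours smaller falls of contractile genes in the Myh11-high cells.

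**Figure D1:**
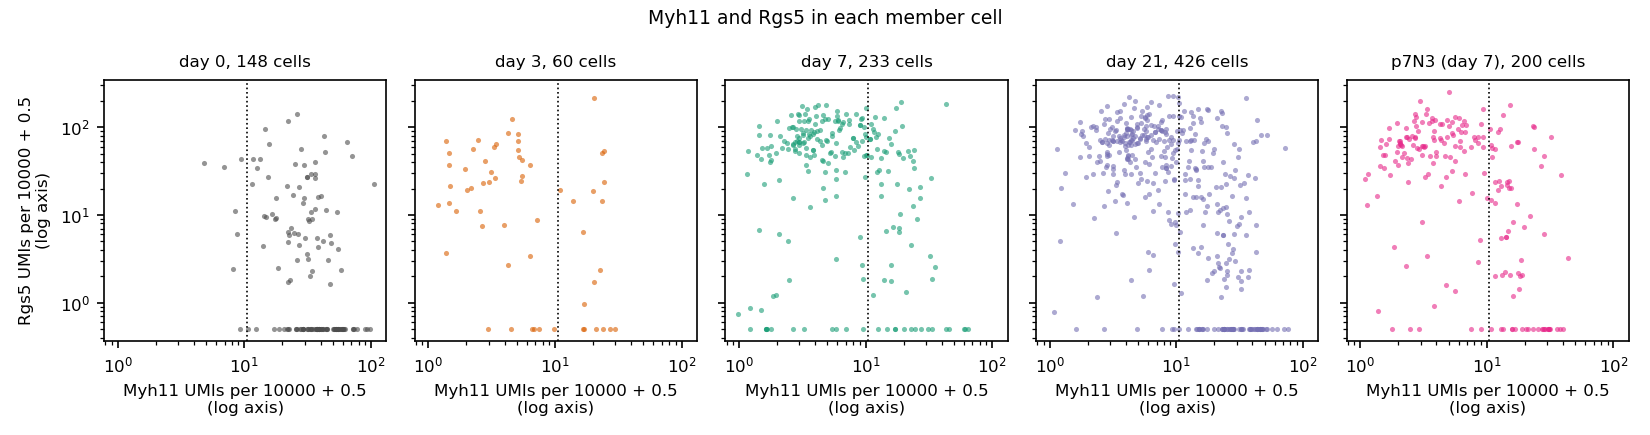
Rgs5 against Myh11 in each Myh11+ cell, by group, in UMIs per 10000 UMIs plus 0.5 on log axes, with a dotted line at 10 Myh11 UMIs per 10000. Nearly all day 0 cells (141 of 148) lie past the line, whereas 18 of 60 cells do so at day 3 and 70 of 233 at day 7.

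Several genes outside the gate separated these cells from the other cells of the same library, as a description without a test because Myh11 chose the cells. Pln, phospholamban, which restrains the calcium pump of the sarcoplasmic reticulum, averaged 209 CPM (UMIs of the gene relative to the UMI total, the unit of all comparisons with other cells and of the clusters; levels by library carry TMM scaling as well) in the Myh11+ cells against 0.611 in all other cells, a ratio of 342. P2rx1, an ATP-gated cation channel that answers sympathetic nerves, had a ratio of 260 and Nrip2, a nuclear receptor cofactor, of 121. Mylk, myosin light chain kinase, averaged 1499 against 32.4 CPM. Synpo2, an actin-binding protein, had a ratio of 59.4, and Kcnk3, a potassium channel, of 56.5. Each of these genes was higher in the Myh11+ cells in 19 of 19 libraries. In the pericyte gate (830 cells) Pln averaged 0.702 CPM and P2rx1 1.06 CPM, whereas Mylk reached 431 CPM.

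Leiden clustering split the Myh11+ cells into 9 clusters, which describe their variety. Clusters 3 and 6 held most day 0 cells. Cluster 3 (168 cells) had Kcna5, a voltage-gated potassium channel, and Casq2, a calcium store protein, among its leading genes and held 47.3% of the cells at day 0, 5.58% at day 7 and 16.2% at day 21. Cluster 6 (85 cells), led by Nr4a2, Crem and Rnd1, held 31.8% of day 0 and 3.99% of day 21 cells. Cluster 2 (189 cells) had Nov and Cnn1 among its leading genes, had Eln, the elastin gene, at 1462 CPM and took 11.5% of day 0 and 23.2% of day 21 cells.

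The other clusters were rare or absent at day 0. Cluster 1 (205 cells) was led by Saa3, an acute phase gene, Dlk1 and Kcnj8, with the globin genes Hba-a2 and Hba-a1 also among its leading genes. Saa3 at day 21 came almost only from replicate 1, as given with the inflammatory genes below. Cluster 1 had 7480 CPM of Rgs5 and 297 CPM of Myh11, and held 0.676% of the cells at day 0, 37.3% at day 7, 12.0% at day 21 and 32.5% with p7N3. Cluster 4 (147 cells), with Colec11, Id4, Rgs16, Il6 and Cxcl10 among its leading genes, held 24.9% of day 21 cells against 10.7% at day 7 and 4.0% with p7N3. Cluster 5, with Cck, S100a4 and Acan among its leading genes, held 14.1% of day 21 cells. Cluster 8 (65 cells) carried the mitotic genes Ube2c, Cenpf and Top2a and held 11.2% of day 7, 15% of p7N3 and 1.88% of day 21 cells. Cluster 9 (32 cells) had the cartilage and tendon matrix genes Col2a1, Thbs4 and Comp among its leading genes. It had 18828 CPM of Col1a1 and 244 CPM of Myh11 at a median of 22887.5 UMIs per cell, and held 6.44% of day 7 and 3.29% of day 21 cells. Of its 14 day 21 cells, 9 came from replicate 4.

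Of the 60 day 3 cells, 56 fell in cluster 7, whose leading genes S100a8, S100a9 and Lyz2 are known from neutrophils and macrophages. S100a8, a neutrophil calcium-binding protein, stood at 811 CPM in the Myh11+ cells at day 3. It stood at 734 CPM in the pericyte gate, 903 in the Pdgfra class and 765 in the Cdh5 class (endothelial cells) of the same libraries, against 2843 in the Ptprc class. Lyz2, lysozyme, stood at 808 CPM in the Myh11+ cells and between 757 and 901 CPM in those 3 classes, against 10775 in the Ptprc class. These genes were thus at a like level in every non-immune class of day 3. The cells were not clustered without them.

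**Figure D2:**
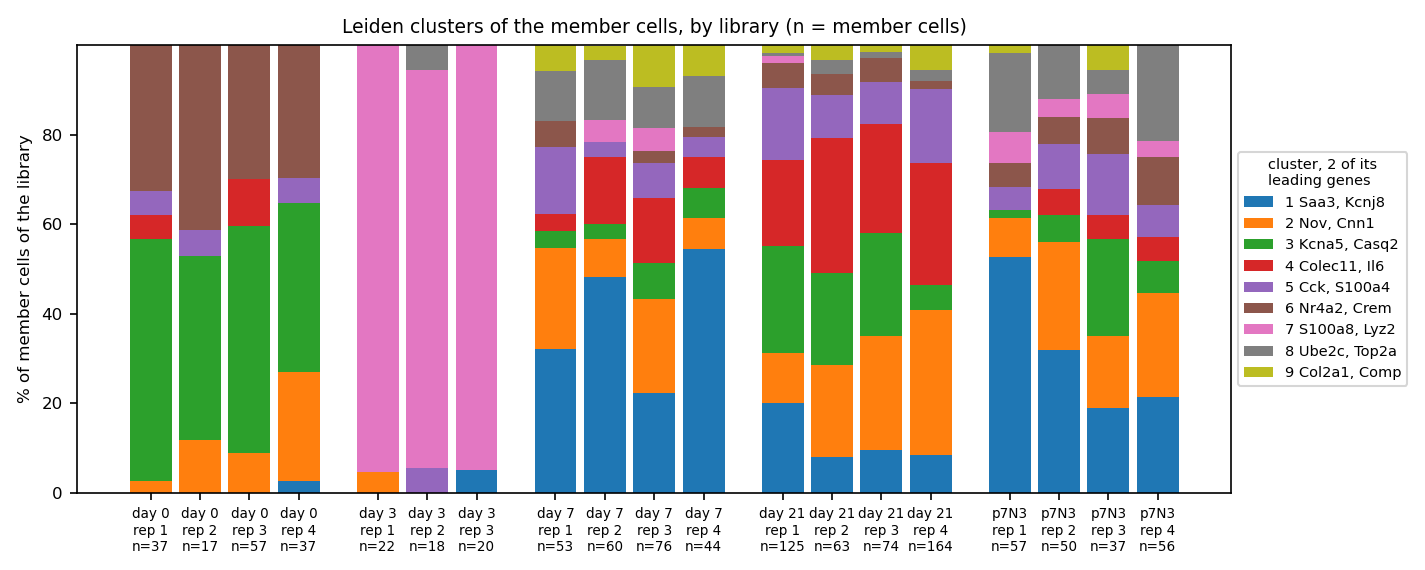
Share of the Myh11+ cells of each library, in percent, that fell in each of the 9 Leiden clusters, with 1 stacked bar per library. Cluster 7 holds 93.3% of day 3 cells, clusters 3 and 6 hold most day 0 cells, and cluster 1 holds 37.3% of day 7 cells.

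The share of Myh11+ cells fell after injury and was above its day 0 level at day 21, though the latter did not hold when shallow cells were left out and the others thinned. They made up 3.69, 2.98, 5.13 and 4.22% of the cells kept in the day 0 libraries. At day 3 the shares were 1.12, 0.842 and 1.18%, and at day 7 they were 1.62, 1.68, 2.07 and 1.52%. At day 21 they were 8.13, 6.95, 7.83 and 8.38%. The 4 groups did not overlap between day 0 and any later time. The means were 4.01% ± 0.908 (SD, n = 4) at day 0, 1.05% ± 0.181 (n = 3) at day 3, 1.72% ± 0.243 (n = 4) at day 7 and 7.82% ± 0.627 (n = 4) at day 21. The exact two-sided permutation test gave p = 0.0286 (0.0357 adjusted over 5 comparisons) for each of day 3, day 7 and day 21 against day 0 and for day 21 against day 7, the smallest p the design allows. With p7N3 the shares were 2.07, 1.39, 1.46 and 2.22%, a mean of 1.78% ± 0.420 (SD, n = 4), which overlapped untreated day 7 (p = 0.914, exact two-sided permutation test).

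A share of cells also moves with the number of other cells. When each cell was thinned to 4000 UMIs before the gate was applied, the shares were 5.32% at day 0, 0.567% at day 3, 1.13% at day 7 and 6.20% at day 21. Day 21 was then 0.879 percentage points above day 0 (exact permutation p = 0.171), and at 2000 UMIs it was 4.26% against 4.55% (p = 0.714). Thinning to 4000 UMIs left out 1743 shallower cells at day 0, none at day 3, 1866 at day 7, 286 at day 21 and 1689 with p7N3, of which 52, 0, 19, 5 and 11 were Myh11+ cells, so thinning and the loss of shallow cells cannot be told apart. With at most 10% mitochondrial UMIs the mean shares were 2.69% at day 0, 0.999% at day 3, 1.65% at day 7 and 7.48% at day 21, each later group still apart from day 0 (exact permutation p = 0.0286). For the Myh11-high cells the shares were 3.81% at day 0, 0.318% at day 3, 0.514% at day 7 and 3.64% at day 21, with an exact permutation p of 0.8 for day 21 against day 0. The denominator turned the early fall around. Per 100 cells of the Cdh5 class, Myh11+ cells numbered 15.5 at day 0, 71.6 at day 3, 35.3 at day 7, 56.6 at day 21 and 33.1 with p7N3. The Cdh5 class itself held 205 to 258 cells per library at day 0 and only 26 to 32 at day 3. Among cells with at most 1 Ptprc UMI they were 4.21% at day 0 and 2.25% at day 3 (exact permutation p = 0.0571).

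**Figure D3:**
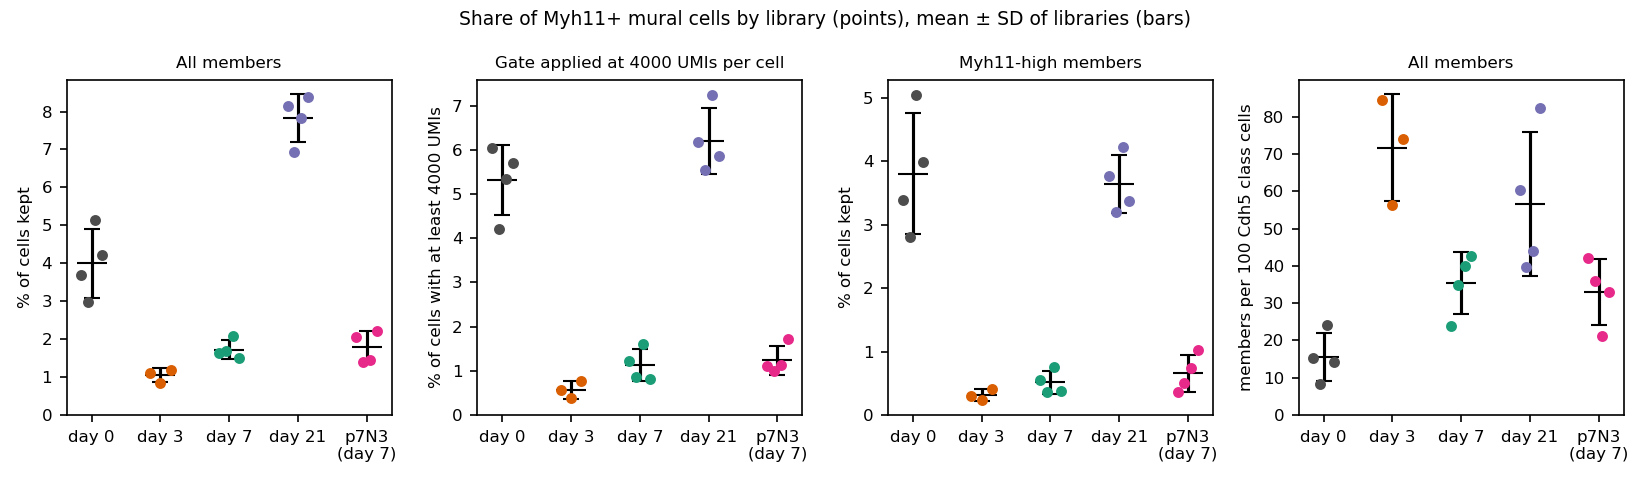
Myh11+ cells of each library by group, in 4 panels: percent of the cells kept, percent after thinning to 4000 UMIs, percent that were Myh11-high, and number per 100 cells of the Cdh5 class. Points are libraries, with the group mean. The mean of day 0 lies above those of days 3 and 7 in the first 3 panels and below them in the last.

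To ask how gene expression in these cells changed with time, the UMIs of the Myh11+ cells were summed for each library and compared with edgeR's quasi-likelihood test with Benjamini-Hochberg adjustment over 8005 genes. At day 3, 1579 genes (19.7%) were higher and 1295 (16.2%) lower than at day 0. At day 7 the counts were 1786 (22.3%) higher and 1469 (18.4%) lower, and at day 21 they were 1150 (14.4%) higher and 908 (11.3%) lower. Between day 21 and day 7, 611 genes (7.63%) were higher and 605 (7.56%) lower. The first 3 comparisons share the same 4 day 0 libraries, so their results are set side by side only. Among the Myh11-high cells, for which 3565 genes could be tested, 384 genes (10.8%) were higher and 358 (10%) lower at day 3. The counts were 445 (12.5%) and 414 (11.6%) at day 7 and 142 (3.98%) and 154 (4.32%) at day 21. For day 21 against day 7 they were 39 (1.09%) higher and 58 (1.63%) lower. Of the genes called in all Myh11+ cells and tested in both, those called the same way in the Myh11-high cells were 666 of 1843 (36.1%) at day 3, 815 of 1970 (41.4%) at day 7, 282 of 1371 (20.6%) at day 21 and 86 of 774 (11.1%) for day 21 against day 7. Lists of genes by role are described below by their counts and by their median log2 fold change; over all genes tested the median was 0.07 at day 3, 0.10 at day 7 and 0.08 at day 21 against day 0, and 0.01 for day 21 against day 7.

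Genes of the contractile apparatus mostly fell. Of 30 listed genes, 21 fell and 4 rose at day 3 (median log2 fold change -1.15), 21 fell and 4 rose at day 7 (median -0.999), and 19 fell and 3 rose at day 21 (median -0.73). The gate gene Myh11, smooth muscle myosin heavy chain (ENSMUSG00000018830, chr16:14194535-14291372, minus strand), is described only, since it chose the cells. Its level per library was 3434, 3087, 3855 and 4666 CPM at day 0, 620, 750 and 761 CPM at day 3, 767, 542, 935 and 469 CPM at day 7, and 1256, 1188, 1447 and 1083 CPM at day 21. Every later library lay below every day 0 library, and day 21 above days 3 and 7. The means of the other gate genes at day 3 and day 0 were 9220 and 16926 CPM for Acta2, 5490 and 10765 CPM for Tagln, 158 and 658 CPM for Lmod1, 520 and 822 CPM for Notch3, and 442 and 461 CPM for Cnn1.

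Ppp1r12b, a targeting subunit of myosin phosphatase (ENSMUSG00000073557, chr1:134754658-134955942, minus strand), was read at 426, 423, 513 and 505 CPM at day 0. It stood at 50.9, 78.1 and 79.2 CPM at day 3, at 79.2, 57.8, 94.1 and 54.9 CPM at day 7, and at 167, 183, 220 and 142 CPM at day 21. The later groups did not overlap day 0, and day 21 did not overlap day 7. Its log2 fold change was -2.77 ± 0.24 (SE) at day 3 (adjusted p = 3.08e-09, edgeR) and -2.71 ± 0.20 at day 7 (adjusted p = 2.32e-10, edgeR). The change at day 3 was smaller in the Myh11-high cells, at -1.41 (adjusted p = 0.000169, edgeR). Day 21 was above day 7 by 1.3 ± 0.19 on the log2 scale (adjusted p = 8.96e-05, edgeR), and by 0.81 in the Myh11-high cells (adjusted p = 0.014, edgeR).

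Ldb3, whose promoter carries a CArG box, fell at day 3 from 160 ± 37.3 to 17.8 ± 9.40 CPM (mean ± SD, n = 4 and 3), a log2 change of -3.15, and by -1.40 in the Myh11-high cells. Itga8, an integrin subunit, had a log2 change of -3.07 at day 3 (-1.08 in the Myh11-high cells). Synm, an intermediate filament protein, had one of -2.81 at day 7 (-1.10 in the Myh11-high cells) and stood 1.21 higher at day 21 than at day 7, where the Myh11-high value of 0.46 was not called (adjusted p = 0.38, edgeR). The 4 that rose at day 3 and at day 7 were Itga5, Actg2, Vim and Cnn2, and at day 21 Itga5, Vim and Cnn2 rose. Itga5, a fibronectin receptor subunit, rose at day 3 from 19.5 ± 14.3 to 215 ± 53.6 CPM, a log2 change of 3.29 (4.23 in the Myh11-high cells). Of the other genes with a CArG box shown above, Myl9, Myl6 and Filip1l fell at days 3 and 7 and Vcl was not called at day 3. Day 21 was higher than day 7 for 10 of the 30 genes and lower for none (median 0.28), among them Synm, Flna and Smtn. The Myh11-high cells had 3 of 29 higher and none lower (median 0.06).

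Fewer contractile genes were called in the Myh11-high cells, which were chosen on the level of a contractile gene. That limit kept 95.3% of the cells at day 0 and 30.0% at days 3 and 7, leaving out those lowest in Myh11. Smaller falls are thus partly set by the choice of cells, and the counts cannot show how far. Of 29 genes tested in the Myh11-high cells, 10 fell and 6 rose at day 3 (median -0.23), 10 fell and 4 rose at day 7 (median -0.28), and 3 fell and 2 rose at day 21 (median -0.16). The share of cells with pericyte genes rose with the fall of these genes, and its part in the result for all Myh11+ cells was not tested beyond these values.

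Calcium handling, channel and receptor genes fell with them. Of 24 genes tested, 17 fell and 2 rose at day 3 (median -2.03), 19 fell and 2 rose at day 7 (median -1.51), 15 fell and 2 rose at day 21 (median -1.07), and 9 were higher and none lower at day 21 than at day 7 (median 0.70). In the Myh11-high cells 11 of 17 fell and none rose at day 3, 9 fell and 1 rose at day 7, 1 fell and 1 rose at day 21, and none differed between day 21 and day 7. Pln (ENSMUSG00000038583, chr10:53337667-53345987, plus strand) stood at 605, 486, 450 and 646 CPM at day 0, at 55.7, 31.3 and 48.5 CPM at day 3, at 127, 24.6, 157 and 56.6 CPM at day 7 and at 183, 218, 289 and 133 CPM at day 21. The later libraries were all below day 0. Day 21 overlapped day 7, with a log2 difference of 1.15 ± 0.35 (adjusted p = 0.0295, edgeR) in all Myh11+ cells and 0.36 (adjusted p = 0.564, edgeR) in the Myh11-high cells. The Pln call between day 21 and day 7 was lost when any of day 21 replicates 2 and 3 and day 7 replicates 2 and 4 was left out.

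Kcna5, a delayed rectifier potassium channel that holds the resting voltage of arterial smooth muscle (ENSMUSG00000045534, chr6:126532551-126535412, minus strand), was at 248, 254, 249 and 202 CPM at day 0. It was at 4.84, 11.7 and 5.11 CPM at day 3, at 19.4, 8.67, 32.5 and 14.2 CPM at day 7, and at 66.4, 62.9, 67.2 and 19.7 CPM at day 21. Every later library was below day 0, with a log2 fold change at day 3 of -5.12 ± 0.58 (adjusted p = 2.42e-07, edgeR) and of -3.13 in the Myh11-high cells. Kcna5 was also read in the Cdh5 class, at 172 CPM at day 0.

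Casq2, calsequestrin, and Cacna1h, a T-type calcium channel, had log2 fold changes of -3.8 and -3.85 at day 3, and of -2.02 and -2.33 in the Myh11-high cells. Adra1a, an alpha-1 adrenoceptor, fell from 39.1 ± 11.6 to 2.60 ± 4.51 CPM at day 3. Log2 changes at day 3 were -6.38 for the sodium channel gene Scn3a, -6.09 for the G protein subunit gene Gna14 and -5.78 for the scaffold gene Grip2, and all 3 fell in the Myh11-high cells too. At day 7 Igf2, insulin-like growth factor 2, had a log2 change of -4.45. The calcium list's 2 rises were Agtr1a, the type 1 angiotensin II receptor, and Rgs5. Agtr1a rose from 7.91 ± 3.46 CPM at day 0 to 77.8 ± 25.6 CPM at day 7, a log2 change of 3.35. It was among the leading genes of the Kcnj8-rich cluster 1, at 132 CPM against 36.5 CPM in the other Myh11+ cells. The part of cluster 1 in this rise was not tested.

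**Figure D4:**
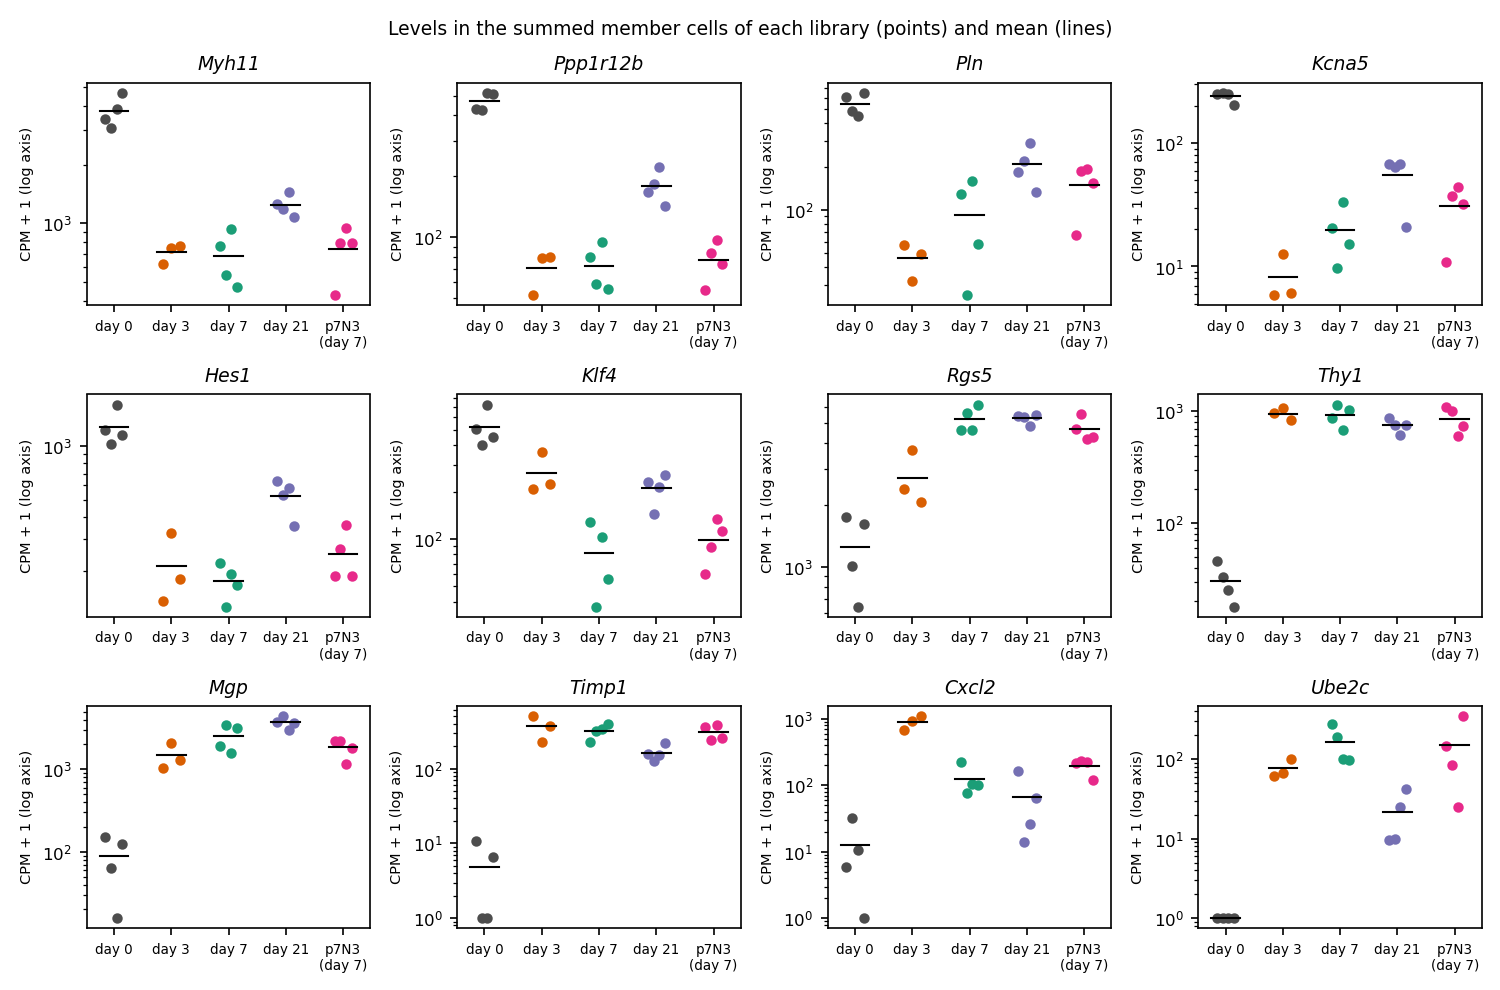
CPM plus 1 on a log axis for 12 genes in the Myh11+ cells, by group, with 1 point per library and a bar at the group mean. Ppp1r12b, Pln, Kcna5 and Hes1 are highest at day 0 and lie between day 0 and day 7 at day 21, whereas Thy1, Mgp and Timp1 are lowest at day 0.

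Regulators of the smooth muscle state fell in part. Of 21 transcription factor genes tested, 11 fell and 1 rose at day 3 (median -0.92), 12 fell and 1 rose at day 7 (median -0.87), and 8 fell and 1 rose at day 21 (median -0.61). Among 14 tested in the Myh11-high cells, 5 fell and 1 rose at day 3, 4 fell and 1 rose at day 7, and 2 fell at day 21. Myocd, myocardin, had 47.1 ± 14.2 CPM at day 0, 10.6 ± 2.92 at day 3, 11.2 ± 5.74 at day 7 and 14 ± 0.900 at day 21, which are low levels in every group. Its log2 fold changes were -2.16, -2.03 and -1.72, and it was too low to be tested in the Myh11-high cells. Tbx2 and Mef2c, a partner of myocardin in muscle genes, had log2 changes of -2.47 and -1.94 at day 3, and of -1.02 and -1.14 in the Myh11-high cells. Tbx18, a mural cell factor, was the gene that rose, from 10.4 ± 4.02 to 41.6 ± 9.42 CPM at day 7.

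Klf4, a zinc finger factor studied in smooth muscle modulation (ENSMUSG00000003032, chr4:55527143-55532466, minus strand), stood at 506, 402, 723 and 449 CPM at day 0. It stood at 208, 359 and 225 CPM at day 3, 129, 36.1, 102 and 54.9 CPM at day 7 and 231, 143, 216 and 258 CPM at day 21. No later library reached the lowest day 0 library. Its log2 fold change at day 7 was -2.71 ± 0.31 (adjusted p = 2.24e-07, edgeR), and -1.65 in the Myh11-high cells. Klf4 was 1.41 higher on the log2 scale at day 21 than at day 7 in all Myh11+ cells (adjusted p = 0.00226, edgeR), and 0.52 in the Myh11-high cells (adjusted p = 0.559, edgeR). It was also lower after day 0 in the Pdgfra and Cdh5 classes, at 925 and 931 CPM at day 0 and 233 and 209 CPM at day 7.

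Notch signalling passes between neighbouring mural and endothelial cells and maintains arterial smooth muscle. Of 13 Notch genes tested, 6 fell and 1 rose at day 3, 5 fell and 1 rose at day 7, and 5 fell and 1 rose at day 21. Of 7 tested in the Myh11-high cells, 2 fell at day 3, 1 fell at day 7 and none was called at day 21. The target gene Hes1 (ENSMUSG00000022528, chr16:30064384-30067796, plus strand) was between 1025 and 1705 CPM in the 4 libraries of day 0, at 133, 324 and 179 CPM at day 3, 218, 124, 190 and 165 CPM at day 7, and 637, 528, 578 and 354 CPM at day 21. The groups at days 0, 7 and 21 did not overlap. Its log2 fold change was -2.64 ± 0.29 at day 3 and -2.88 ± 0.26 at day 7 (adjusted p = 1.45e-07 and 5.15e-09, edgeR), and -1.96 and -2.09 in the Myh11-high cells. It was 1.59 higher at day 21 than at day 7 (adjusted p = 0.000174, edgeR) and 1.29 higher in the Myh11-high cells (adjusted p = 0.0347, edgeR). The ligand Jag1 and the target Hey2 fell at days 3, 7 and 21 (for Hey2 at days 7 and 21 the Myh11-high values of -0.33 and -0.25 were not called, adjusted p = 0.598 and 0.717, edgeR, and its day 21 call was lost without day 0 replicate 4 or day 21 replicate 1), and Heyl and Hey1 were not called. The rise was Dtx4, a ubiquitin ligase of the pathway, from 1.24 ± 2.48 CPM at day 0 to 38.8 ± 8.11 CPM at day 3.

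In the TGF beta and BMP list of 26 genes, 9 fell and 3 rose at day 3 and at day 7, 5 fell and 3 rose at day 21, and 8 were higher at day 21 than at day 7 with none lower. The falls were nearly absent in the Myh11-high cells, where of 19 genes 1 fell and 2 rose at day 3, 1 fell and 1 rose at day 7 and at day 21 (medians 0.06, -0.12 and 0.00), and none differed between day 21 and day 7. Among the ligands, Tgfb1 and Tgfb3 moved in opposite directions. Tgfb1, for which the labels give no genotype by library (ENSMUSG00000002603, chr7:25687002-25705077, plus strand) stood at 44.6, 10.6, 39.1 and 33.7 CPM at day 0, 119, 168 and 128 CPM at day 3, and 108, 133, 71.4 and 81.4 CPM at day 7. It was higher in every library of days 3 and 7, with a log2 fold change of 1.95 ± 0.31 at day 3 (adjusted p = 2.46e-05, edgeR) and 1.75 in the Myh11-high cells. The Ptprc class, at 289 CPM at day 3, carried more Tgfb1 than the 128 CPM of the Myh11+ cells. Tgfb3 (ENSMUSG00000021253, chr12:86056745-86079041, minus strand) stood at 253, 529, 332 and 444 CPM at day 0 and 151, 114, 97.4 and 93.8 CPM at day 7. The groups did not overlap, and the log2 fold change was -1.72 ± 0.24 (adjusted p = 4.41e-06, edgeR), with -1.28 in the Myh11-high cells. At day 0 Tgfb3 was at 374 CPM in the Myh11+ cells, 32.9 in the pericyte gate, 70.7 in the Pdgfra class and 17.8 in the Cdh5 class.

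Of the targets and inhibitors, Id1, an inhibitor of differentiation induced by BMP, fell at day 3 from 187 ± 45.0 to 77.9 ± 74.7 CPM, a log2 change of -1.43 with overlapping groups. In the Myh11-high cells the sign was reversed at 0.22 (adjusted p = 0.78, edgeR), and the call was lost without day 3 replicate 1 or replicate 3. Fst, follistatin, which binds activin, had 27.0 ± 32.2 CPM at day 0, 43.3 ± 11.7 at day 7 and 216 ± 41.5 at day 21. It was 2.29 higher on the log2 scale at day 21 than at day 7 (adjusted p = 0.000324, edgeR), but 1.09 in the Myh11-high cells (adjusted p = 0.485, edgeR).

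Genes of the modulated state, drawn from descriptions of smooth muscle cells after vessel injury, mostly rose. Of 37 genes tested, 28 rose at day 3, 32 at day 7 and 33 at day 21, and none fell. Their median log2 fold changes were 2.44, 2.78 and 2.75, or 2.24, 2.78 and 2.75 with the 2 genes at 0 in every day 0 library set to the bound of 3 UMIs over the group. In the Myh11-high cells 23, 28 and 22 of 35 rose and none fell. Among those not called at day 21 were Ly6a, Thbs1 and Actb.

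Timp1, an inhibitor of matrix metalloproteinases (ENSMUSG00000001131, chrX:20870166-20874735, plus strand), was at 9.91, 0, 0 and 5.62 CPM at day 0, 501, 223 and 371 CPM at day 3, 226, 319, 336 and 391 CPM at day 7, and 157, 124, 153 and 217 CPM at day 21. All later libraries were above day 0, with a log2 fold change of 6.32 ± 0.52 at day 3 (adjusted p = 1.74e-09, edgeR) and 5.22 in the Myh11-high cells. Timp1 was higher in the Pdgfra class, at 45.4 CPM at day 0 and 3050 CPM at day 3.

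Thy1, a surface glycoprotein of mural and stromal cells (ENSMUSG00000032011, chr9:44043384-44048579, plus strand), was named for the size of its change. It stood at 44.6, 31.7, 24.4 and 16.9 CPM at day 0 and 863, 757, 610 and 760 CPM at day 21, with all day 3 and day 7 libraries between 680 and 1148 CPM. The log2 fold change at day 21 was 4.66 ± 0.29 (adjusted p = 4.22e-11, edgeR), and 3.24 in the Myh11-high cells (adjusted p = 2.64e-06, edgeR). At day 7 its level was 934 CPM in the Myh11+ cells, 1535 in the pericyte gate, 234 in the Pdgfra class and 113 in the Cdh5 class.

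Mgp, matrix Gla protein, an inhibitor of calcification (ENSMUSG00000030218, chr6:136872435-136875823, minus strand), was at 149, 63.4, 14.7 and 124 CPM at day 0, 1046, 2067 and 1295 CPM at day 3, 1916, 3487, 1555 and 3169 CPM at day 7, and 3771, 4411, 2971 and 3638 CPM at day 21. Each later library was above each day 0 library. The log2 fold change at day 21 was 5.36 ± 0.38 (adjusted p = 3.94e-10, edgeR) and 3.66 in the Myh11-high cells. The pericyte gate already had 3367 CPM of Mgp at day 0.

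Spp1, osteopontin, rose from 1.24 ± 2.48 CPM to 309 ± 132 CPM at day 3, a log2 change of 7.51 (6.38 in the Myh11-high cells). Set against other cells at day 3, Spp1 was at 285 CPM in the Myh11+ cells, 163 in the pericyte gate and 333 in the Pdgfra class. The Cdh5 class had 241 and the Ptprc class 1380 CPM. The part of leukocyte RNA in the Spp1 level was not tested. Cthrc1, a secreted protein of repairing vessels and connective tissue, had no UMI at day 0. It was at least about 11.4-fold higher at day 3, 49.3-fold at day 7 and 60.1-fold at day 21, against a floor of 3 UMIs over the group. It was at 1766 CPM in the 32 collagen-rich cells of cluster 9 and 37.9 CPM in the other Myh11+ cells. With those 32 cells left out its fitted log2 change was 7.61 in place of 9.88 at day 7 and 7.25 in place of 10.17 at day 21 (adjusted p = 2.45e-06 and 2.66e-05, edgeR). Marcks, an actin-linked kinase substrate, rose by a log2 change of 4.12 at day 3 (2.27 in the Myh11-high cells). Tmsb10, an actin-sequestering peptide, was among the 9 genes lower at day 21 than at day 7, by 1.04 on the log2 scale and by 1.09 in the Myh11-high cells. Col8a1, a short-chain collagen, was the gene that was higher, with a difference of 1.17 that was 0.03 in the Myh11-high cells (adjusted p = 0.998, edgeR). Its call was lost without day 7 replicate 1 or 4 or day 21 replicate 2, 3 or 4.

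Fibroblast markers were also higher after day 0, and 6 of the 12 (Col1a1, Col1a2, Postn, Cthrc1, Lum and Dcn) are on the modulated list too. The 12 fibroblast markers, Col1a1 the most abundant and none at 0 throughout, summed to 1908 ± 473 CPM at day 0, 6179 ± 1149 at day 3, 10119 ± 1753 at day 7 and 10155 ± 2845 at day 21, and of 11 tested 4 rose and 1 fell at day 3, 6 rose and 1 fell at day 7, and 7 rose and none fell at day 21. Among 8 tested in the Myh11-high cells, 2, 6 and 5 rose and none fell. Pdgfra itself was limited by the gate. Col1a1, a type I collagen chain, was at 204 CPM at day 0 and 4242 CPM at day 7 in the Myh11+ cells and at 17742 CPM in the Pdgfra class at day 7. The part of fibroblast RNA in the modulated genes was not tested.

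More genes of the matrix that smooth muscle cells lay down rose than fell. Over all genes tested, 19.7% rose and 16.2% fell at day 3, 22.3% and 18.4% at day 7, and 14.4% and 11.3% at day 21. The falls in this list were near those shares. Of 33 genes of elastic fibres and basement membrane, 12 rose and 7 fell at day 3, 16 rose and 7 fell at day 7, 16 rose and 5 fell at day 21, and 7 were higher and 2 lower at day 21 than at day 7. In the Myh11-high cells 23 of them were tested, of which 9 rose and 2 fell at day 3, 12 rose and 1 fell at day 7, 7 rose and none fell at day 21 (median 0.12, against 1.16 in all Myh11+ cells), and none differed between day 21 and day 7. Loxl2, a collagen and elastin cross-linking enzyme, rose from 20.4 ± 16.2 to 206 ± 8.52 CPM at day 3, by 3.13 on the log2 scale and by 2.38 in the Myh11-high cells. Mfap2, a microfibril protein, rose from 7.76 ± 10.1 to 196 ± 34.9 CPM at day 7. Fbln5, which organises elastic fibres, fell at day 3 from 26.0 ± 5.09 to 2.96 ± 0.822 CPM. The elastin gene Eln stood at 448 ± 121 CPM at day 0 and 764 ± 339 CPM at day 3 (mean ± SD, n = 4 and 3). Sparcl1, an adhesion-modulating matrix protein, was 0.89 higher on the log2 scale at day 21 than at day 7 (adjusted p = 0.00135, edgeR), with 0.30 in the Myh11-high cells (adjusted p = 0.378, edgeR).

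Many genes of inflammatory mediators rose at day 3. Of 32 genes tested, 19 rose and 4 fell at day 3 (median 1.99), 10 rose and 6 fell at day 7 (median 0.71, or 0.35 with genes at 0 at day 0 set to their bound), and 11 rose and 5 fell at day 21 (median 1.3, or 1.24 so set). Among 20 of them tested in the Myh11-high cells, 6 rose and 2 fell at day 3, 4 rose and 3 fell at day 7, and 1 rose and none fell at day 21. The neutrophil chemoattractant Cxcl2 (ENSMUSG00000058427, chr5:90903871-90905938, plus strand) was at 4.96, 31.7, 9.77 and 0 CPM at day 0, 676, 930 and 1099 CPM at day 3, 223, 75.2, 104 and 99.1 CPM at day 7, and 163, 13.2, 25.5 and 63.9 CPM at day 21. Day 3 was above every other library. Its log2 fold change at day 3 was 6.63 ± 0.77 (adjusted p = 3.5e-07, edgeR) and 5.90 in the Myh11-high cells. At day 3 Cxcl2 was at 831 CPM in the Myh11+ cells, 446 in the pericyte gate, 804 in the Pdgfra class, 537 in the Cdh5 class and 3080 in the Ptprc class.

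Ccl2, a monocyte chemoattractant (ENSMUSG00000035385, chr11:82035571-82037453, plus strand), was at 69.4, 10.6, 9.77 and 0 CPM at day 0, 826, 1078 and 529 CPM at day 3, 502, 146, 76.3 and 135 CPM at day 7 and 465, 208, 302 and 296 CPM at day 21. All later libraries were above day 0. The log2 fold change was 5.01 ± 0.82 at day 3 (adjusted p = 3.78e-05, edgeR), 3.56 in the Myh11-high cells, and 3.67 at day 21 (adjusted p = 0.00202, edgeR), where the Myh11-high value of 1.77 was not called (adjusted p = 0.329, edgeR). Vcam1, a leukocyte adhesion molecule, rose from 2.46 ± 2.84 to 33.1 ± 5.25 CPM at day 21. Il6ra, an interleukin 6 receptor chain, fell by 3.78 on the log2 scale at day 7. Between day 21 and day 7, 12 genes were higher and 1, Cxcl5, was lower, whereas none of 20 was called in the Myh11-high cells. The Cxcl5 call was lost when any library of either group other than day 7 replicate 1 was left out. Among the 12, Saa3 rested on day 21 replicate 1 (226 CPM, the other day 21 libraries at 0, 0 and 1.74), and its difference without that library was -0.65 on the log2 scale.

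Leukocyte markers rose at day 3 beside these mediators. The 7 neutrophil markers summed to 9.15, 43.4, 4.54 and 5.22 CPM at day 0, 1446, 1360 and 1970 CPM at day 3, 119, 209, 339 and 122 CPM at day 7 and 10.0, 7.38, 9.29 and 4.54 CPM at day 21. The 13 macrophage markers, led by Lyz2, summed to 247, 206, 150 and 162 CPM at day 0, 2323, 2517 and 2689 CPM at day 3, 712, 1294, 889 and 556 CPM at day 7 and 540, 365, 240 and 146 CPM at day 21. All 3 neutrophil and all 11 macrophage markers tested rose at day 3, and no listed marker of either type was at 0 in all libraries. S100a8 and Lyz2 were at like levels in the other non-immune classes, as given above, and their part in the level of the mediators was not tested.

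Immediate early genes, which respond within minutes to stimulation, were lower after day 0. Of 26 tested, 17 fell at day 3, 23 at day 7 and 10 at day 21, none rose, and 19 were higher at day 21 than at day 7. Of 25 tested in the Myh11-high cells, 9, 16 and 5 fell and 2 were higher at day 21 than at day 7. Fos was at 4633, 2950, 4911 and 3527 CPM at day 0, 925, 2020 and 1390 CPM at day 3, 1317, 780, 1545 and 1021 CPM at day 7 and 3792, 2627, 2923 and 2509 CPM at day 21. Days 3 and 7 lay below day 0 throughout, and day 21 overlapped it. Atf3, a stress-induced factor (ENSMUSG00000026628, chr1:191170296-191218039, minus strand), stood at 206, 92.5, 179 and 163 CPM at day 7 and 686, 483, 647 and 391 CPM at day 21. The groups did not overlap, and day 21 was higher by 1.78 ± 0.25 on the log2 scale (adjusted p = 6.73e-05, edgeR) and by 1.11 in the Myh11-high cells (adjusted p = 0.0202, edgeR). In the pericyte gate Atf3 stood at 654 CPM at day 0 and 83.9 CPM at day 7. Mitochondrial share and depth also set day 0 apart, and their part in this result was not tested.

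Cell cycle genes rose after injury and were lower again at day 21. Of 23 tested, 16 rose and 2 fell at day 3, 19 rose and 1 fell at day 7, 9 rose and 1 fell at day 21, and 17 were lower at day 21 than at day 7. Since 8 of them had no UMI at day 0, the medians were 3.10 at day 3 and 3.83 at day 7 with those at their bound. Ube2c, a ubiquitin-conjugating enzyme of mitosis (ENSMUSG00000001403, chr2:164769898-164778822, plus strand), was at 0 in the 4 day 0 libraries. It was at 60.6, 66.4 and 99.6 CPM at day 3, 277, 189, 99 and 95.5 CPM at day 7 and 8.51, 8.78, 24.2 and 41.2 CPM at day 21. It was at least about 18.2-fold higher at day 3 and at least about 39.8-fold higher at day 7, and fell by 2.86 ± 0.55 on the log2 scale from day 7 to day 21 (adjusted p = 0.00156, edgeR). The bounds at day 7 were about 31.3-fold for the mitotic kinase gene Cdk1, 29.5-fold for Birc5, survivin, and 19.0-fold for Top2a, a topoisomerase. In the Myh11-high cells, 5 of 11 cell cycle genes rose at day 7 and none at day 3. The day 0 sums held 722630 UMIs in all, so a count of 0 over the group allows a level of up to 4.15 CPM there (3 UMIs).

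Oxidative phosphorylation genes fell in part. Of 42, 19 fell and 1 rose at day 3, 24 fell and 1 rose at day 7, and 23 fell and none rose at day 21. Of 41 in the Myh11-high cells, 5, 6 and 0 fell. The summed level of the list ran from 23571 to 26944 CPM at day 0 and from 19022 to 21759 CPM in all other libraries, and the mitochondrial share of the cells was also higher at day 0.

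Pericyte genes rose among the Myh11+ cells. Rgs5 (ENSMUSG00000026678, chr1:169655501-169695813, plus strand) was at 1744, 1015, 640 and 1617 CPM at day 0, 2398, 3696 and 2072 CPM at day 3, 4639, 5619, 4666 and 6178 CPM at day 7 and 5465, 5354, 4866 and 5516 CPM at day 21. Every later library was above day 0. The log2 fold change at day 21 was 2.07 ± 0.22 (adjusted p = 1.81e-07, edgeR), and 1.49 in the Myh11-high cells (adjusted p = 0.00104, edgeR). In the pericyte gate Rgs5 was highest at day 0, at 8305 CPM, and at 5331 CPM at day 7. That gate counts Rgs5 UMIs, so a deeper cell could enter it at a lower Rgs5 level, and it held 34 cells at day 0. Of 12 pericyte markers, 5 rose and 3 fell at day 3, 7 rose and 1 fell at day 7, and 8 rose and 1 fell at day 21. Among the Myh11-high cells 10 of these were tested, of which 1 rose and 2 fell at day 3, 2 rose at day 7 and 1 rose at day 21 (medians -0.22, -0.07 and 0.19). With the cells holding Kcnj8 or Abcc9 left out, 3885 genes could be tested, of which 1639 (42.2%) changed at day 7 and 460 (11.8%) at day 21, against 40.7% and 25.7% of the 8005 genes with all Myh11+ cells.

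Col2a1 and Comp were concentrated in the 32 cells of cluster 9, whereas Acan was among the leading genes of cluster 5. Of 13 cartilage and mineralization genes tested, 2 rose and 5 fell at day 3, 3 rose and 5 fell at day 7, and 6 rose and 1 fell at day 21. Of 7 tested in the Myh11-high cells, 2 rose and 2 fell, 3 rose and 1 fell, and 2 rose and 1 fell. Bglap and Phospho1, genes of mineralizing cells, were at 0 in all libraries. Col2a1, the main collagen of cartilage, had no UMI at day 0 and was at 4.26, 39.5, 22.8 and 1082 CPM at day 21, so that its bound of about 69.2-fold rested on replicate 4. Acan, aggrecan, was at least about 17.6-fold higher at day 7. Hp, haptoglobin, rose at day 21 from 2.48 ± 4.96 to 364 ± 222 CPM, by 6.87 on the log2 scale and by 6.09 in the Myh11-high cells, and Rgs16, a G protein regulator, rose from 34.5 ± 40.7 to 785 ± 135 CPM.

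Genes of skeletal muscle gave other falls. Of 8 skeletal muscle markers tested, 6 fell at day 3, 4 at day 7 and 6 at day 21. At day 21 against day 7, the rises of Gm42418 (from 253 ± 29.1 to 1021 ± 368 CPM) and AY036118 are uncertain, since the annotation places them over each other on opposite strands of chromosome 17.

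**Figure D5:**
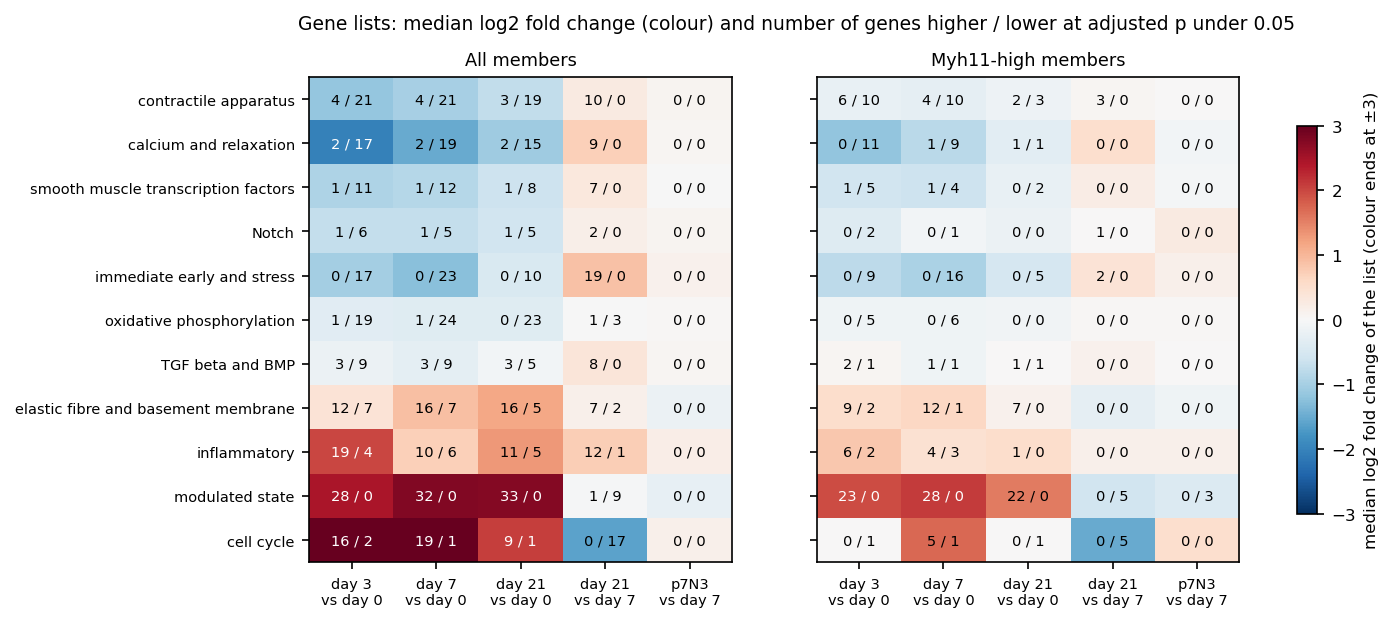
Median log2 fold change (colour) of each gene list for the 5 comparisons, with the number of genes higher and lower at an adjusted p under 0.05, for all Myh11+ cells and for the Myh11-high cells. Contractile, calcium and transcription factor lists are negative against day 0 and the modulated list positive. Fewer genes fell in the Myh11-high cells, where fewer were tested and the cells were chosen on Myh11 level, on the first 3 of these lists.

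The last comparison set p7N3 against untreated day 7, which addresses the effect of the CD47-activating peptide, with no vehicle named in the labels of either group. No gene of 8005 was called (0%) with edgeR's quasi-likelihood test, which gave 375 genes with an unadjusted p under 0.05, and none with DESeq2, which gave 275. With p7N3, Ppp1r12b stood at 53.8, 82.8, 96.4 and 73.3 CPM and Hes1 at 185, 263, 359 and 186 CPM, each overlapping its untreated day 7 range. Cd47 itself, the receptor that tells macrophages not to engulf a cell, was at 164, 172, 169 and 170 CPM at day 7 and 168, 176, 166 and 130 CPM with p7N3. Leukocyte markers varied widely between the p7N3 libraries, with macrophage markers summing to 832, 516, 2062 and 1410 CPM.

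In the Myh11-high cells 4 of 3565 genes (0.112%) were lower with p7N3 and none higher, and these 4 were named after their values were seen. Thy1 was at 298, 435, 305 and 464 CPM in the untreated and 84.5, 118, 118 and 160 CPM in the p7N3 libraries, without overlap. The log2 change was -1.56 ± 0.27 (adjusted p = 0.00947, edgeR). In all Myh11+ cells the value was -0.11 (adjusted p = 1, edgeR). Postn, periostin, a matrix protein of repairing tissue, was at 557, 383, 1375 and 476 CPM untreated and 106, 126, 126 and 166 CPM with p7N3. Its log2 change was -2.41 ± 0.41 (adjusted p = 0.00947, edgeR), against -0.67 in all Myh11+ cells (adjusted p = 0.861, edgeR). The collagen genes Col1a2 and Col1a1 both had a log2 fold change of -1.48 (adjusted p = 0.0135 and 0.047, edgeR). Postn, Col1a1 and Col1a2 are also on the list of fibroblast markers. Thy1 was highest in the pericyte gate, and Kcnj8 or Abcc9 was found in 22.9% of the untreated and 12.3% of the p7N3 Myh11-high cells; the part of these cells in the result was not tested. These sums rested on 10 to 28 cells per library.

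Whether the changes were particular to Myh11+ cells was tested against the pericyte gate of the same libraries, as the difference between their changes with the library as a block. For p7N3 against day 7 the difference was called for 0 of 10201 genes with edgeR (377 at an unadjusted p under 0.05) and for 0 with DESeq2 (107). The day 0 libraries held only 6 to 10 pericyte gate cells, so the comparisons with day 0 could be made only when libraries with at least 5 cells were allowed. Then 338 of 8760 genes differed at day 3, 592 at day 7 and 462 at day 21, most of them with the lower change in the Myh11+ cells (260, 495 and 400). Mgp rose more in Myh11+ cells than in pericytes, by 3.50, 3.70 and 3.53 on the log2 scale, and so did Steap4, a metalloreductase, by 3.07, 3.21 and 3.44. Both are genes of the pericyte gate or of the Kcnj8-rich cluster 1, and the share of Myh11+ cells with Kcnj8 or Abcc9 rose from 10.1% to between 54.7 and 65.0% in the same comparisons; its part in these differences was not tested. Of 29 contractile genes, 12, 18 and 15 changed more toward lower values in the Myh11+ cells and none the other way. Of 42 oxidative phosphorylation genes the counts were 30, 33 and 28. These counts rest on 34 pericyte gate cells at day 0, and the pericyte gate itself allowed at most 1 Myh11 UMI.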

How the data were processed

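The authors made 10x Genomics 3' v2 libraries, ran Cell Ranger against mm10 and deposited raw UMI counts, a value for each of 27998 genes in each barcode, not normalized. The submitters' processing notes name Cell Ranger and Seurat, and list GRCh38 for some samples and mm10 for others; the genes in the files are mouse genes. The file of day 0 replicate 1 held 737280 barcodes, before any cell filter, and a rule after Cell Ranger was an alternative for it. UMIs of all cells kept ran from 3019467 to 39870492 per library. Genes without a UMI in a whole group were given a floor of 3 counts over that group. Such floors cover counting error only. They carry no TMM scaling, whereas the levels divided by them do, so folds given as bounds are approximate.

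The cells, gene lists and comparisons were chosen with earlier results of these data known. UMIs of the Myh11+ cells were summed for each library with at least 10 of them, filtered with filterByExpr and scaled with TMM factors. They were compared in 1 fit of all 5 groups with edgeR 4.0.16 (quasi-likelihood, Benjamini-Hochberg, adjusted p under 0.05); DESeq2 1.42.0 was an alternative. CPM are edgeR values with TMM scaling, except CPM of clusters and those set against other cell classes, which are scaled to the UMI total of the cells. Sums of Myh11-high cells used libraries with at least 5 of them. Shares were compared with exact permutation tests in scipy 1.17.1. Classes of other cells needed at least 2 UMIs of Ptprc, Pdgfra or Cdh5. Clusters of the Myh11+ cells came from leidenalg 0.10.2 on a scanpy 1.11.5 neighbour graph (2000 variable genes, 20 components, 15 neighbours, resolution 0.5). Doublets were kept, and leaving out the top 3.9% of Scrublet scores was an alternative. Named genes were, for 8 of the lists, at most 4 called genes with the largest changes, and in each comparison at most 8 genes per direction with the largest changes, a mean of at least 50 CPM, groups that did not overlap and, in the higher group, a level of at least 50% of that in each of the Ptprc, Pdgfra and Cdh5 classes. Levels against other cells named at most 15 genes with the largest ratios. Other genes were named after their values were seen. Python 3.11.15, numpy 2.4.6, pandas 2.3.3, matplotlib 3.10.9, R 4.3.3 and limma 3.58.1 were used. Gene positions are from GENCODE on GRCm38. Genotype differences were not analysed here.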

Additional observations from a re-analysis of the deposited data

Results flagged for a closer look

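In groups of 4 libraries, 12 of 120 sets of values held a library far from the other 3, measured as its gap to the nearest library over the range of the group; chance gives about 1 in 20. Kcna5 was lowest in day 0 replicate 4, at 202 CPM against 248 to 254, and in day 21 replicate 4, at 19.7 CPM against 62.9 to 67.2. Cxcl2 was lowest in p7N3 replicate 4, at 120 CPM against 216 to 228. Ccl2 was highest in day 0 replicate 1, at 69.4 CPM, and in day 7 replicate 1, at 502 CPM against 76.3 to 146. Atf3 was lowest in p7N3 replicate 1, at 94.1 CPM against 225 to 240. Col2a1 was highest in day 21 replicate 4, at 1082 CPM against 4.26 to 39.5, and was read in 1 library each of day 7 (1.62 CPM in replicate 3) and p7N3 (2.68 CPM in replicate 3). The summed neutrophil markers were highest in day 0 replicate 2, at 43.4 CPM. The summed erythrocyte markers were highest in day 7 replicate 2, at 1092 CPM against 147 to 220, and in p7N3 replicate 2, at 5270 CPM against 142 to 190.

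The change from day 0 differed between Myh11+ cells and the pericyte gate for 338 genes at day 3, 592 at day 7 and 462 at day 21, by the interaction test in edgeR on libraries with at least 5 cells of each.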

How the results depend on the processing

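Counts of changed genes moved most with the gate and the filter. For day 3, day 7, day 21 against day 0 and day 21 against day 7, at least 10 UMIs in every library gave 878, 892, 679 and 501 genes, by testing fewer genes. Myh11-high cells gave 742, 859, 296 and 97 (829, 306 and 86 for the last 3 with at least 10 cells per library). Leaving out cells with Kcnj8 or Abcc9 gave 1639, 460 and 616 of 3885 tested (42.2, 11.8 and 15.9%, against 40.7, 25.7 and 15.2%) for the last 3. Replicates 1 to 3 alone gave 1186 and 648 for the last 2. For day 3, a fit of both groups alone gave 1904 of 3483 tested (54.7% against 35.9%). For day 21 against day 7, Myh11 of at least 3 UMIs gave 627 and of at least 1 gave 2186. With p7N3, no filter gave 75, Myh11 of at least 1 UMI 12 and Myh11-high cells 4 under either minimum. The difference from pericytes with p7N3 gave 24 genes without a filter. DESeq2 gave 881 higher and 919 lower at day 21 against day 0, where edgeR gave 1150 and 908, and 461 and 662 for day 21 against day 7, where edgeR gave 611 and 605. Leaving out a library gave 2393 to 2793, 2751 to 3135, 1553 to 1972 and 605 to 1212 genes, with 605 without day 7 replicate 2, 746 without day 7 replicate 4 and 757 without day 21 replicate 3, and 0 with p7N3. Of 187 named genes and comparisons, 75 of the 125 that could be tested in the Myh11-high cells kept the call. In other settings not all pairs could be tested either. Replicates 1 to 3 alone kept the call for 161 and lost it for 20. Leaving out cells with Kcnj8 or Abcc9 kept 82 and lost 18, and DESeq2 kept 181 and lost 5. The Cell Ranger rule and the minimum of 5 cells left the sums as they were and so tested nothing about these calls. The reversals were Id1 at day 3 in the Myh11-high cells (0.22) and Saa3 for day 21 against day 7 without day 21 replicate 1 (-0.65, where leaving out any other library gave up to 5.60). The cause was not tested. Genes whose calls were lost without some single library include Cxcl5, Col8a1, Maml2, Smad2, Mfap4, Adra1a, Notch2, Hey2, Itga8, Pdlim3, Pln, Cacna1c and Klf2.

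Shares, as differences in percentage points, kept their direction in most settings. With at most 10% mitochondrial UMIs the falls were smaller, at -1.70 at day 3 and -1.05 at day 7 (exact permutation p = 0.0286). Per 100 cells of the Cdh5 class the differences were 56.2 at day 3 and 19.8 at day 7 (exact permutation p = 0.0571), 21.3 for day 21 against day 7 (p = 0.0857) and -2.27 with p7N3. Among cells with at most 1 Ptprc UMI day 3 gave -1.96 (exact permutation p = 0.0571). With Myh11 of at least 1 UMI day 7 gave -1.67 (exact permutation p = 0.0571) and p7N3 -0.0035. For day 21 against day 0, thinning to 2000 and 4000 UMIs gave -0.291 and 0.879, and the Myh11-high cells -0.162. Replicates 1 to 3 alone gave -2.88, -2.14, 3.70, 5.85 and -0.154 in the order of the comparisons, at the smallest exact p of 0.1 for all but the last. Leaving out a library gave day 3 differences of -3.30 to -2.58, day 7 of -2.63 to -1.91 and day 21 of 3.48 to 4.19, with 5.91 to 6.39 for day 21 against day 7 and -0.0848 to 0.191 with p7N3; the exact p at day 3 was then 0.0667 or 0.1, the smallest allowed, and at day 7 0.0571 without replicate 1, 2 or 4.

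The libraries of different groups share replicate numbers. Libraries with the same number had a median correlation of deviations of 0.0135 (-0.0986 to 0.193 over 36 pairs) against -0.00768 over 108 pairs with different numbers, so the numbers were not taken to pair them. With the replicate block the counts were 2837, 3198, 1984, 1251 and 0 genes, and the share differences -2.88 (exact p = 0.25), -2.28, 3.82 and 6.10 (each exact p = 0.125, the smallest possible). The interaction tests against day 0 were not run at 10 cells of each kind per library, which day 0 did not reach. At day 0 a count of 0 over the group allows up to 4.15 CPM.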

Other observations

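Over all genes tested, 19.7% rose and 16.2% fell at day 3, 22.3% and 18.4% at day 7, and 14.4% and 11.3% at day 21. Of 24 growth factor and paracrine genes, 4 rose and 8 fell at day 3 and at day 7, and 6 rose and 5 fell at day 21. In the Myh11-high cells 17 of them were tested. There 4 rose and 1 fell at day 3, 4 rose and 3 fell at day 7, and 2 rose and 1 fell at day 21. Of 19 interferon-induced genes, 7 rose and 2 fell at day 3, 8 rose and 2 fell at day 7, and 6 rose at day 21, with 1 higher and 4 lower at day 21 than at day 7. Of 20 glycolysis and hypoxia genes, 6 rose and 2 fell at day 3 and 3 rose and 2 fell at day 21. Of 8 genes of the CD47 axis, Thbs2, Thbs3, Thbs4 and Cd47 rose and Cd36 fell at day 7, whereas in the Myh11-high cells 1 of 6 rose and 1 fell. Thbs4 was among the leading genes of the 32 cells of cluster 9, at 1090 CPM against 19.5 CPM in the other Myh11+ cells. Thrombospondins are matrix proteins, some of which bind CD47. Cd47 was at 99.1, 127, 112 and 169 CPM at day 0 and 164, 172, 169 and 170 CPM at day 7.

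Markers of further cell types were as follows. The endothelial markers summed to 406 CPM at day 0 and 437 CPM at day 7, and of 5 tested 2 rose and 1 fell at day 3 and 3 rose and 2 fell at day 7. The erythrocyte markers summed to 723, 768, 417, 201 and 1441 CPM at days 0, 3, 7 and 21 and with p7N3, and none of 4 was called; day 7 replicate 2 (1092 CPM against 147 to 220) and p7N3 replicate 2 (5270 CPM against 142 to 190) set the means of their groups. Of 4 Schwann cell markers, 2 fell at day 3 and at day 7 and none changed at day 21. The tenocyte markers summed to 155 CPM at day 0 and 575 CPM at day 21, where 2 of 4 rose. In cells gated for Pdgfra, Col2a1 was at 514 CPM at day 21. It was at 281 CPM in the Myh11+ cells, a mean set by replicate 4 (1082 CPM against 4.26 to 39.5).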
